A study of Rattus norvegicus with 4 samples.

Results

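Macrophage markers, genes used to recognise tissue macrophages and their close myeloid relatives, were followed in the inner medulla of the kidney of female and male Sprague Dawley rats. The set holds 10 genes (Cd68, Lyz2, Csf1r, Cd163, Mrc1, Cd14, Fcgr2b, Tyrobp, Ptprc and Aif1), out of 35374 gene loci in the deposited table. A gene was found by its symbol in any letter case, and where a symbol stood on several rows the row with the highest sum of the female and male values was taken. All 10 had a row. The females and the males had the same strain, diet and age range: rats were bought at 13 to 15 weeks, moved to chow with 0.49% NaCl at 14 to 16 weeks, and kept on it for 2 weeks without any other treatment. Each sex was sequenced as 2 pools of 4 rats, 8 rats per sex, and total RNA was read from both ends at 34552171 to 41945343 read pairs per pool. The question the design puts is which genes differ between the sexes in this tissue on this diet.

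Values are FPKM, fragment counts scaled by transcript length and library size, and can be compared between genes. The authors joined the 2 pools of a sex into 1 value, so no value below carries an SD, and each comparison rests on p, and on q (p adjusted over the 20307 loci with a test), as the authors' deposited table gives them. A gene is called where that q is under 0.05. Positions are build rn5, as the table gives them.

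Macrophages take up and digest particles, dying cells and pathogens, and tissue macrophages are kept alive by the growth factors CSF1 and IL34 acting on the receptor CSF1R. In the kidney they lie in the interstitium between the tubules and vessels. Few of their markers are theirs alone: Ptprc is carried by all white blood cells, Tyrobp also by natural killer cells, and Mrc1 and Fcgr2b are known from some endothelial cells too, Fcgr2b also from B cells. In bulk tissue, fewer cells of a type and less RNA per cell cannot be told apart.

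No macrophage marker was called between the sexes. The authors tested 7 of the 10, and 0 of these 7 passed, beside 2.34% of all tested loci, 1.63% called higher in females and 0.719% higher in males. In the authors' deposited table the unadjusted p was under 0.05 for 3 of the 7, and these, Ptprc, Csf1r and Lyz2, all had the higher value in females. Of all tested loci, 6.08% were under that p with the higher value in females and 3.68% with the higher value in males. The female value was above the male value for 5 of the 7 and below it for 2. Of 16883 tested loci with a mean of at least 1 FPKM and a value above 0 in both sexes, 47.1% had the higher value in females. The log2 ratio of female to male over these 7 had a median of 0.23, against -0.02 over 16883 tested loci with a mean of at least 1 FPKM and a value above 0 in both sexes, and 90% of those loci lay between -0.67 and 0.76. The 3 markers without a test, Mrc1, Fcgr2b and Cd163, were under 0.3 FPKM in each sex.

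**Figure D1:**
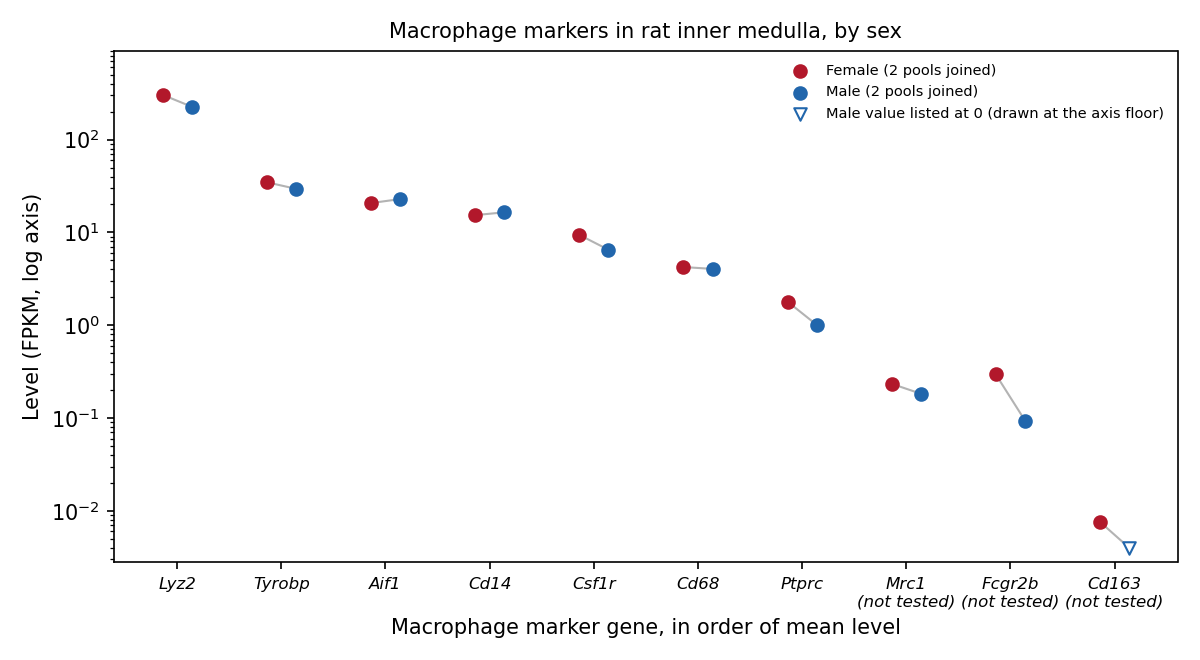
Level of each macrophage marker in FPKM on a log axis, females in red on the left of each pair and males in blue on the right, 1 value per sex from 2 joined pools and no error bars. Lyz2 stands highest, at 304 FPKM in female pools and 226 in male pools, Ptprc is the lowest of the tested markers, and Cd163 is listed at 0 in males.

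The order of the 7 tested markers by level was the same in females and in males: Lyz2, Tyrobp, Aif1, Cd14, Csf1r, Cd68 and Ptprc. The mean level of Lyz2 was 8.25 times that of Tyrobp. The smallest step was from Aif1 to Cd14, where the means were 1.37-fold apart. Without values per pool, no neighbours in this order could be compared against their spread. Mrc1 and Fcgr2b changed places between the sexes. All 10 markers added up to 390.3 FPKM in female pools and 307 in male pools, of which Lyz2 made 77.8% in females and 73.7% in males. Without Lyz2 the sum was 86.7 FPKM in female pools and 80.6 in male pools.

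The 3 markers of smallest p were Ptprc, Csf1r and Lyz2, and their promoters are shown here because the factor PU.1 (gene Spi1), known to drive macrophage genes, is among the genes measured. Sequences are RefSeq's of build GRCr8, 250 bases before to 50 after the gene start, written 5′ to 3′ on the gene's own strand, and 7 of the 10 markers had an entry. Capitals mark the PU box, the letters GAGGAA or on the other strand TTCCTC. Ptprc lies at chr13:52259697-52259996 on the minus strand, Csf1r at chr18:56834129-56834428 on the plus strand and Lyz2 at chr7:54797962-54798261 on the minus strand.
Ptprc: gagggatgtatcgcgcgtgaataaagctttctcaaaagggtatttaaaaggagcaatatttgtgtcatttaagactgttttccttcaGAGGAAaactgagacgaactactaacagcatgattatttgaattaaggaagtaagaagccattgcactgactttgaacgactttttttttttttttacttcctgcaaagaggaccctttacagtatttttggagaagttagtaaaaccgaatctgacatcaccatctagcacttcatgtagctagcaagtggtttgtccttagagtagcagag
Csf1r: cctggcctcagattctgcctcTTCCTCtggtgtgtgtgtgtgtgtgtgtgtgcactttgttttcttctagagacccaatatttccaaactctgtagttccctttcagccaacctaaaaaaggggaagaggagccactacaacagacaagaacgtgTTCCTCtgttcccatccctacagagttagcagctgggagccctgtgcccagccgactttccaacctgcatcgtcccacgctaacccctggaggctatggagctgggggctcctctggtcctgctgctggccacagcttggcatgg
Lyz2: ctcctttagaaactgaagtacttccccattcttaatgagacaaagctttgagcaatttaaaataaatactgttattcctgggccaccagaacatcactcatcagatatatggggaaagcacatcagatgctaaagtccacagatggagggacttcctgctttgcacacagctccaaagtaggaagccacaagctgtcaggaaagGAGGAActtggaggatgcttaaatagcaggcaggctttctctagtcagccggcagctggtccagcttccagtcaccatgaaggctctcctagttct
The Ptprc window had 1 match, beginning 163 bases before the start, Csf1r had 2, both on the opposite strand, and Lyz2 had 1, beginning 46 bases before the start. Of the 7 windows 6 held the letters, the exception being Cd163, and so did 27.6% of all 33469 rat promoter windows. A match is a description of letters, and binding was not measured here.

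Ptprc encodes CD45, the tyrosine phosphatase on the surface of every white blood cell (chromosome 13, 60094038 to 60205338). It was at 1.80 FPKM in female pools and 1.01 in male pools. The female level was 1.78-fold the male level, a log2 ratio of 0.83, with p = 0.0012 and q = 0.0502 in the authors' deposited table, just outside the threshold. This was the largest ratio among the 7 tested markers, above that of 95.7% of tested loci with a mean of at least 1 FPKM. With a pseudocount of 1 the log2 ratio was 0.48. The level itself was low, with 24.5% of tested loci having a lower mean. With q adjusted again over the 16984 tested loci with a mean of at least 1 FPKM alone, Ptprc was called at q = 0.0485, beside 2.47% of those loci. With a limit of q under 0.1 it was called as well, beside 3.40% of all tested loci. At q under 0.01, where 1.55% of loci passed, no marker was called, nor with q adjusted over the loci of at least 5 FPKM, 2.34% of which were called and among which Ptprc does not fall.

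Csf1r, the receptor through which CSF1 and IL34 keep macrophages alive (chromosome 18, 55662899 to 55689298), was at 9.42 FPKM in female pools and 6.51 in male pools. The female value was 1.45-fold the male value, a log2 ratio of 0.53 with p = 0.0077 and q = 0.175 in the authors' deposited table. Its ligands were not called. Csf1 was at 9.45 FPKM in female pools and 8.94 in male pools, and Il34 at 4.65 in female pools and 3.59 in male pools, with q = 0.999 for each in the authors' deposited table. Of 5 tested genes of colony-stimulating factors and their other receptors, 0 were called, and all 5 had the higher value in females. Their median log2 ratio was 0.40 (0.30 with a pseudocount of 1). Csf3, the granulocyte growth factor, had the largest ratio of these, at 2.66 FPKM in female pools and 0.980 in male pools (q = 0.0502 in the authors' deposited table).

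Lyz2 and Cd68 belong to the digestive equipment of phagocytes. Lyz2, a lysozyme that cleaves bacterial cell walls (chromosome 7, 60337950 to 60343246), was at 304 FPKM in female pools and 226 in male pools. That level lies above 98.1% of tested loci. The female value was 1.34-fold the male value, with p = 0.0114 and q = 0.227 in the authors' deposited table. A second row spelt LYZ2, 12358 bases away (chromosome 7, 60318026 to 60325591), was at 0.0718 FPKM in female pools and 4.14 in male pools with q = 0.906 in the authors' deposited table. It made 0.0237% of both rows' sum in females and 1.80% in males, and since lysozyme genes are close copies, how reads were divided between the rows is uncertain. Cd68, a glycoprotein of the lysosome membrane (chromosome 10, 56014364 to 56016243), was at 4.24 FPKM in female pools and 4.04 in male pools, 1.05-fold apart (q = 0.999 in the authors' deposited table). The levels of Cd68 and Lyz2 thus differed widely within each sex.

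The remaining tested markers were Tyrobp, Aif1 and Cd14. Tyrobp, or DAP12, is the adaptor that passes on signals of activating receptors (chromosome 1, 90031116 to 90034967), and was at 34.7 FPKM in female pools and 29.5 in male pools, 1.18-fold apart (p = 0.309, q = 0.952 in the authors' deposited table). Aif1, or IBA1, binds calcium and actin in moving and engulfing macrophages (chromosome 20, 7234610 to 7236508). It was at 20.7 FPKM in female pools and 22.9 in male pools, so that its male value was 1.10-fold its female value (p = 0.546, q = 0.999 in the authors' deposited table). Cd14, the co-receptor that hands bacterial lipopolysaccharide to TLR4 (chromosome 18, 29265352 to 29267265), was at 15.3 FPKM in female pools and 16.5 in male pools, with the male value 1.07-fold the female value (p = 0.606, q = 0.999 in the authors' deposited table). Aif1 and Cd14 were the 2 tested markers with a lower value in females, and a p of that size does not show that their levels were equal.

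Cd163, Mrc1 and Fcgr2b were not tested by the authors. Cd163, the scavenger receptor for hemoglobin bound to haptoglobin, was at 0.00761 FPKM in female pools, and the male value is listed at 0. Its interval on chromosome 4, 223744443 to 224174113, spans 429671 bases and is listed for 10 other loci as well, among them C1r and C1s, so the division of reads within it is uncertain and the listed value need not be the gene's level. Mrc1, the mannose receptor CD206 (chromosome 17, 83099573 to 83180475), was at 0.234 FPKM in female pools and 0.183 in male pools, and its interval is shared with the microRNA gene Mir511. Fcgr2b, the inhibitory receptor for IgG (chromosome 13, 93924703 to 94068497), was at 0.295 FPKM in female pools and 0.0940 in male pools. Its interval is also listed for Fcgr2a and Fcgr3a, close relatives of it, so the division of reads among them is uncertain. Cd163 and Mrc1, often used to mark macrophages of a scavenging type, were listed near 0 beside Lyz2, Tyrobp, Aif1, Cd14 and Csf1r, all above 6 FPKM. Other genes of scavenging and uptake varied. Stab1 was at 3.31 FPKM in female pools and 3.20 in male pools, while 4 of 17 such genes were at 0 in at least 1 sex.

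**Figure D2:**
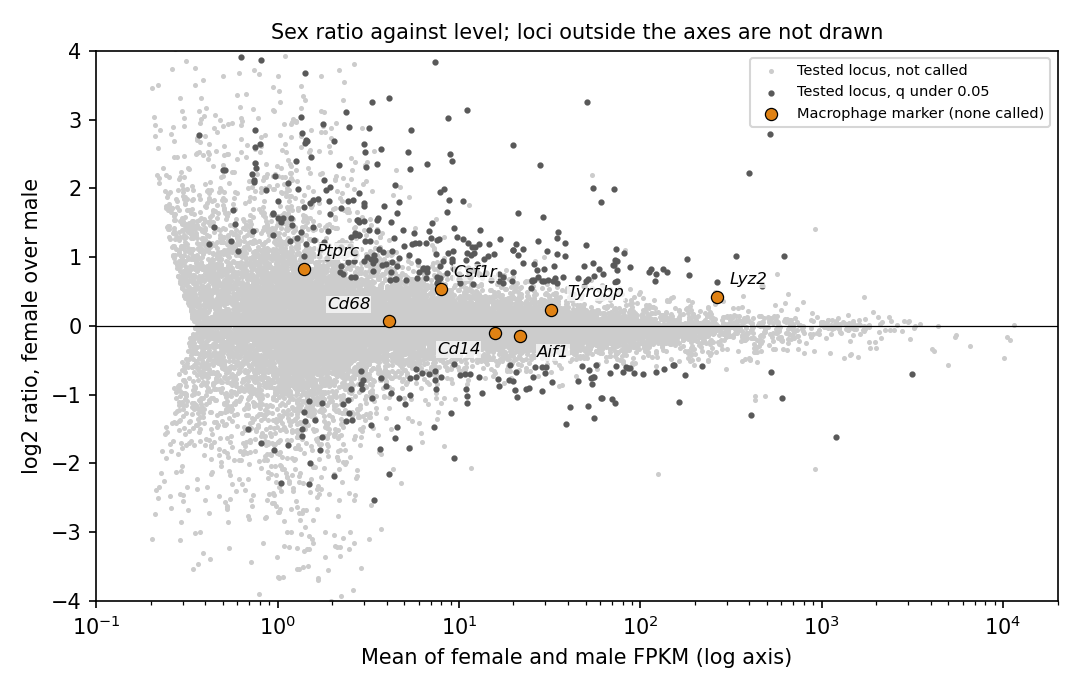
Log2 ratio of female to male against the mean level in FPKM (log axis) for loci tested by the authors with a value above 0 in both sexes, called loci in dark grey and the 7 tested macrophage markers in orange. The markers run from -0.14 (Aif1) to 0.83 (Ptprc), and none is called.

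Genes that act with these markers were taken in 13 lists of related function, given here as counts and medians. Of 128 tested genes in them, 7 were called higher in females and 1 higher in males, 6.25% together, beside 2.34% of all tested loci. The median log2 ratio of the 128 was 0.21, and 89 had the higher value in females. Of 20037 tested loci with a value above 0 in both sexes, 49.1% had the higher value in females.

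Among 10 tested transcription factors of macrophages, Cebpb was called, at 56.1 FPKM in female pools and 34.5 in male pools (q = 0.0408 in the authors' deposited table). It encodes C/EBP-beta, which many cell types use in the acute response to cytokines. Spi1, which encodes PU.1, was at 4.26 FPKM in female pools and 3.78 in male pools (q = 0.999 in the authors' deposited table). The 10 had a median of 0.60 (0.38 with a pseudocount of 1), and for 8 of them the female value was above the male value.

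Of 11 tested receptors and kinases that signal with Tyrobp, 0 were called, with a median of 0.27 (0.15 with a pseudocount of 1). Trem2, a lipid-sensing receptor that signals through the Tyrobp protein, was at 0.929 FPKM in female pools and 1.27 in male pools. Trem3, a relative of it known from rodents, was at 31.5 in female pools and 36.7 in male pools, and Fcer1g, the adaptor of activating Fc receptors, at 32.02 in female pools and 26.5 in male pools. Clec5a, which couples to DAP12 as well, was at 3.05 FPKM in female pools and 1.44 in male pools (q = 0.805 in the authors' deposited table). Its interval is listed for 11 other loci as well, so the division of reads within it is uncertain. Of 7 tested Fc receptors and their inhibitory phosphatases, 0 were called, with a median of 0.18. Fcgrt, the recycling receptor for IgG, was at 47.3 FPKM in female pools and 46.6 in male pools, and the phosphatase Ptpn6 at 18.9 in female pools and 19.4 in male pools. Of 11 tested genes of scavenging and uptake, most but not all of them receptors, 0 were called, with a median of 0.29. Of the 11, 10 were on the female side, that is, with the female value above the male value. The dying-cell receptor Axl was at 7.44 FPKM in female pools and 4.76 in male pools (q = 0.0776 in the authors' deposited table), and the hyaluronan receptor Lyve1, shared with lymphatic endothelium, at 8.33 in female pools and 5.62 in male pools (q = 0.128 in the authors' deposited table).

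Of 10 tested genes of lipopolysaccharide and Toll-like receptor signalling 1 was called. Cd180, a Toll-like receptor homologue best known from B cells and also found on macrophages, was at 10.1 FPKM in female pools and 4.91 in male pools, 2.06-fold apart (q = 0.00391 in the authors' deposited table). The partners of Cd14, Tlr4 and Ly96, were at 2.07 and 11.5 FPKM in females and at 2.13 and 13.2 in males. The median of the list was 0.15, and 0.04 over its members of at least 1 FPKM. Among 18 tested genes of the phagocyte lysosome and the NADPH oxidase, Ctsl and Gpnmb were called higher in females, and the median was -0.02. Gpnmb, a membrane glycoprotein of lysosome-rich macrophages and of other cells, was at 18.3 FPKM in female pools and 9.32 in male pools (q = 0.00391 in the authors' deposited table). Ctsl, the protease cathepsin L, was at 563 FPKM in female pools and 376 in male pools (q = 0.0320 in the authors' deposited table). Other cathepsins were not called, such as Ctsh at 1784 FPKM in female pools and 2232 in male pools and Ctsb at 753 in female pools and 892 in male pools. Cathepsins are also found in the lysosomes of epithelial cells.

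Of 13 tested genes of resident macrophages 0 were called, but 11 were on the female side and the median was 0.46 (0.33 with a pseudocount of 1). The complement chains C1qa, C1qb and C1qc, which tissue macrophages secrete, were at 8.48, 9.21 and 19.5 FPKM in females, against 5.59, 5.64 and 14.2 FPKM in males. Their q-values in the authors' deposited table were 0.415, 0.222 and 0.415. All 3 had an unadjusted p under 0.05 in that table of the authors, as had Tmem119, Sall1 and Apoe. These were 6 of the 13 tested genes, each with the higher value in females. Of all tested loci, 6.08% were under that p with the higher value in females. Sall1 was at 13.7 FPKM in female pools and 10.1 in male pools, and Apoe at 158 in female pools and 122 in male pools. Which cells of the tissue expressed the genes of this list was not measured. The fractalkine receptor Cx3cr1 was at 0.825 FPKM in female pools and 0.570 in male pools, and Adgre1, the F4/80 antigen of the mouse, listed as Emr1, at 1.19 in female pools and 1.21 in male pools. Ms4a7, on an interval listed for 17 other loci, was at 0.411 FPKM in female pools and 0.719 in male pools. Tmem119, a marker of microglia in the brain, was at 2.28 FPKM in female pools and 1.05 in male pools (q = 0.0701 in the authors' deposited table).

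Monocyte and recruitment genes had calls in each direction, 1 of 9 tested on either side. Ccl2, the chemokine that draws monocytes into tissue, was the gene of these 13 lists called higher in males. It was at 104 FPKM in female pools and 224 in male pools, a male level 2.15-fold the female level (q = 0.00391 in the authors' deposited table). Vcan, the matrix proteoglycan versican, made by monocytes and by fibroblasts, was at 31.1 FPKM in female pools and 14.3 in male pools (q = 0.00391 in the authors' deposited table). The related chemokine Ccl7 was at 33.03 FPKM in female pools and 30.97 in male pools, and the median of the list was 0.09.

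Of 9 tested genes of inflammatory activation 0 were called, with a median of 0.04, 7 on the female side and 2 on the male side. Il1b was at 1.39 FPKM in female pools and 1.37 in male pools. Ptgs2 was at 2.67 FPKM in female pools and 1.43 in male pools (q = 0.0530 in the authors' deposited table). Il18 was at 2.62 in female pools and 1.35 in male pools, and Tnf at 1.75 in female pools and 3.99 in male pools. The intervals of Il18 and Tnf are listed for other loci as well. Of 6 tested genes of alternative activation 0 were called, with a median of 0.21. Of these 6, 5 were on the female side. Il1rn had the largest ratio among members of at least 1 FPKM. It was at 1.44 FPKM in female pools and 0.598 in male pools (q = 0.0729 in the authors' deposited table). Arg1, the arginase of that state in the mouse and with a mean under 1 FPKM, was at 1.11 FPKM in female pools and 0.302 in male pools (q = 0.145 in the authors' deposited table). Of 7 tested genes of MHC class II, which present antigen to helper T cells, 2 were called higher in females. RT1-Da was at 88.3 FPKM in female pools and 56.4 in male pools (q = 0.0173 in the authors' deposited table), and RT1-Db1 at 34.5 in female pools and 19.5 in male pools (q = 0.00391 in the authors' deposited table). Cd74, the invariant chain, was at 302 FPKM in female pools and 215 in male pools and missed the limit (q = 0.0940 in the authors' deposited table). RT1-Ba had the lower value in females, at 3.88 FPKM against 5.48 in males, and the median of the 7 was 0.18, or 0.49 over the members of at least 1 FPKM. Of 14 tested genes listed with Ptprc for white blood cell signalling, 0 were called, with a median of 0.25 and 8 on the female side. The list was not limited to genes expressed in all white blood cells, or in these cells alone. Ptprcap, the CD45-associated protein, was at 4.08 FPKM in female pools and 2.05 in male pools, and Arhgdib, at 372 FPKM in female pools and 481 in male pools, was on the male side.

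**Figure D3:**
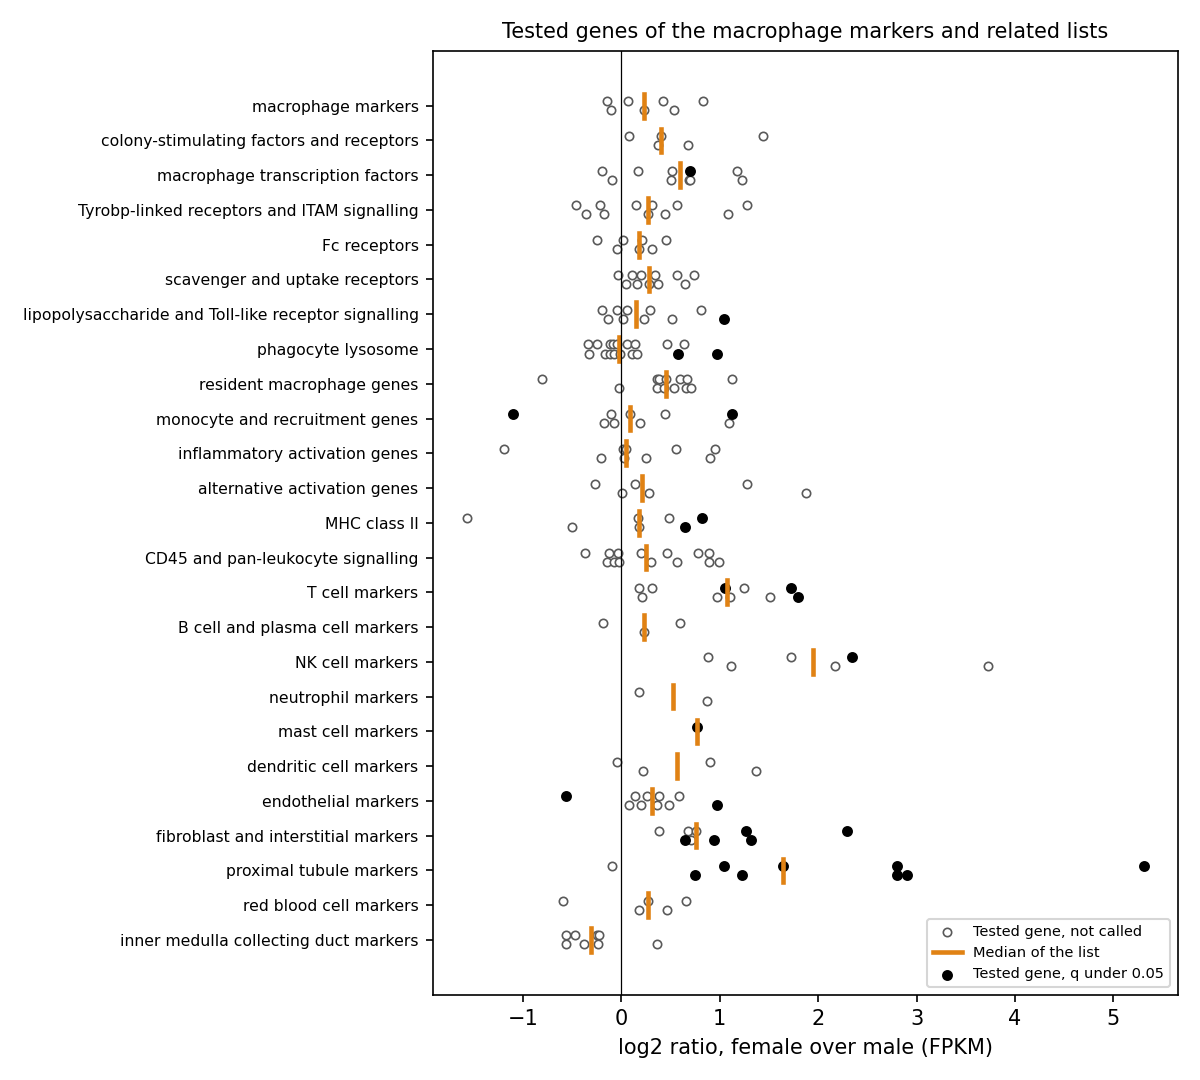
Log2 ratio of female to male for each gene tested by the authors in the macrophage markers and 24 related lists, called genes filled and the median of each list as an orange bar. No macrophage marker is filled, while 8 of 9 tested proximal tubule markers and 3 of 10 tested T cell markers are, all on the female side.

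Markers of other cell types differed between the same values, and their part in the ratios of the macrophage markers was not tested. Of 67 tested genes in these 11 lists, 19 were called higher in females and 1 higher in males, 29.9% together, beside 2.34% of all tested loci. T cell markers, which share Ptprc, had 3 of 10 tested genes called, Cd3e, Cd3g and Trac, all higher in females, with a median of 1.08 (0.70 with a pseudocount of 1) and a summed level over the 11 members of 40.9 FPKM in female pools and 21.4 in male pools. The interval of Trac is listed for 3 other loci as well. NK cell markers, which share Tyrobp, had Nkg7 called of 6 tested, a median of 1.95 (0.57 with a pseudocount of 1), and a sum over 9 members of 9.78 FPKM in female pools and 2.98 in male pools. Neutrophil markers were near 0: their 10 members summed to 2.49 FPKM in female pools and 1.94 in male pools, with Mpo, Camp and Mmp8 listed at 0 in both sexes and 0 of 2 tested genes called (median 0.52, and 0.23 with a pseudocount of 1). B and plasma cell markers summed to 15.5 FPKM in female pools and 16.5 in male pools over 9 members, with Ms4a1 and Pax5 at 0 in both sexes and 0 of 3 called (median 0.24, and 0.03 over the members of at least 1 FPKM). Dendritic cell markers summed to 4.16 FPKM in female pools and 2.86 in male pools over 8 members, with Siglech at 0 in both sexes and 0 of 4 called (median 0.56, and 0.20 with a pseudocount of 1). Of the mast cell markers, Tpsab1, Cma1 and Ms4a2 were at 0 in both sexes, and of the 7 members Kit alone was tested. Kit, shared with other cells, was called at 10.8 FPKM in female pools and 6.33 in male pools, in a sum of 10.9 FPKM in female pools and 6.35 in male pools.

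Fibroblast markers had 5 of 9 tested genes called higher in females, Pdgfra, Pdgfrb, Col1a1, Dcn and Lum. The 9 genes had a median of 0.76 (0.65 with a pseudocount of 1). Their sum was 170 FPKM in female pools and 105 in male pools. Proximal tubule markers, of a segment outside the inner medulla, had 8 of 9 called higher in females: Slc34a1, Cubn, Slc22a6, Slc22a8, Kap, Slc13a3, Slc22a7 and Cyp2e1. The median of the 9 was 1.65, and 0.76 with a pseudocount of 1, and all members summed to 1568 FPKM in female pools and 806 in male pools. The tested member not called, Aqp1, is also known from thin descending limbs and vasa recta of the inner medulla, and was at 618 FPKM in female pools and 660.4 in male pools. Without it, a choice made after its values were seen, the other 10 members summed to 949.8 FPKM in female pools and 145 in male pools, of which Kap made 910.03 in female pools and 131 in male pools. The interval of Kap is listed for 5 other loci as well, so the division of reads within it is uncertain. Endothelial markers had Plvap called higher in females and Vwf higher in males of 10 tested, with a median of 0.31 and a sum of 675 FPKM in female pools and 476 in male pools. Red blood cell markers had 0 of 5 called, with a median of 0.27 and a sum of 1232 FPKM in female pools and 951 in male pools. In that sum Slc4a1 made 208 FPKM in female pools and 184 in male pools. Whether blood alone gave these values was not tested. Collecting duct markers, the main epithelium of the inner medulla, had 0 of 8 called, with 7 of 8 on the male side, a median of -0.31 and a sum of 15091 FPKM in female pools and 20604 in male pools.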

How the data were processed

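Total RNA of kidney inner medulla was measured in 4 pooled libraries, 2 per sex, grouped by sample title. The submitters' processing notes list Cufflinks 2.2.1, TopHat2 2.1.1, StringTie, FastQC and cutadapt, with rn5 as the build and no roles stated. Per the file headers, the deposited table gives 1 value per sex in the layout of Cuffdiff; its values were taken as the authors' FPKM, a unit no header states. Each locus also has a deposited p-value and q-value; q matched a Benjamini-Hochberg adjustment of p over tested loci to within 5.26e-07, and p does not go below 5.00e-05. Counts of read pairs per library were deposited by the authors too. Normalization between libraries and use of strand are not stated in what was used here, so overlapping genes cannot be told apart.

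Here log2 ratios of female to male were computed without a pseudocount (Python 3.11.15, pandas 2.3.3, numpy 2.4.6), and the adjustment was tested on simulated data. No fit was run: with values per sex, neither pools nor depth could set an error. Alternatives were a pseudocount of 0.1 or 1, another row choice, other scaling, other q limits and q adjusted over higher loci. Members and the 24 related lists were chosen with earlier results of these data known. Symbols not found were matched by a RefSeq synonym (GRCr8) that no other gene bears. By the rule for named genes all 10 markers are given. Of the lists that act with them, the rule names the called genes and those of highest level or largest ratio, of which the text gives some. It names Csf1, Il34, Spi1, Trem2, Cx3cr1, Ccr2 and the C1q chains in any case, but no row was found for Ccr2. Some further genes were named outside the rule: Il1b, Ptgs2, Arg1, Ccl7, RT1-Ba, Tlr4, Stab1, Sall1, Adgre1 and Ms4a7. Lists of other cell types are given by counts, called genes and members at 0, with Aqp1 and Slc4a1 added.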

Additional observations from a re-analysis of the deposited data

How the results depend on the processing

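No paired analysis was possible because the deposited values join the pools of each sex; for the same reason no pool could be left out in turn. The count of 0 called macrophage markers became 1 (Ptprc) with q adjusted again over loci of at least 1 FPKM, and 1 (Ptprc again) at q under 0.1. It was 0 at q under 0.01, with q adjusted over loci of at least 5 FPKM and with joined rows left out. The median log2 ratio of the tested markers moved by no more than 0.1, the limit set here for a value with no replicate error, under every pseudocount, row choice and scaling tried, and no tested marker changed sign. Ptprc ranged from 0.48, with a pseudocount of 1, to 0.85, and Csf1r from 0.47 to 0.55. Over the related lists 26 of 195 tested genes were called towards females and 2 towards males, Ccl2 and Vwf. Together these were 14.4%, beside 2.34% of all tested loci. At q under 0.01, which 1.55% of all tested loci passed, the count was 18 towards females and 1 towards males. Of the 24 list medians, 13 moved by more than 0.1, 10 with a pseudocount of 1 and 7 over members of at least 1 FPKM alone, some under each, and none changed sign. With a pseudocount of 1 the largest move was that of NK cell markers, at 0.57 against 1.95 as reported, then proximal tubule markers (0.76 against 1.65), T cell markers (0.70 against 1.08) and dendritic cell markers (0.20 against 0.56). Leaving out Aqp1, an alternative chosen after seeing the data, put the proximal tubule median at 2.22. With pooled values, depth sets no interval on any level, and the 3 markers under 0.3 FPKM were not tested by the authors.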
